A study of Mus musculus with 8 samples.

Results

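The genes described here are the mouse genes for translation initiation factors and their direct regulators, taken as all genes on autosomes whose symbol begins with Eif and a digit from 1 to 6, pseudogenes left out. There were 44 such genes among the 20434 named autosomal genes that were nearest to a peak in at least 1 of the 6 deposited peak lists, and 11076 of those 20434 code for proteins by the RefSeq table. The same symbol rule fits 53 protein-coding autosomal genes of RefSeq, and the 9 not included, Eif2b1, Eif2b4, Eif3i, Eif3j2, Eif4a3l1, Eif4e1b, Eif4e3, Eif4ebp3 and Eif5a2, were not the nearest gene of any listed peak. The peaks come from CUT&Tag, in which an antibody directs a transposase to cut and tag the DNA beside the protein of interest, here the transcription factor IRF5. The cells were macrophages derived from the bone marrow of wild-type mice and had been given PBS (the control) or CpG, a form of unmethylated DNA sensed by TLR9. Each condition had 2 anti-IRF5 libraries, called control 1, control 2, CpG 1 and CpG 2. The labels give neither the dose nor the duration of CpG, nor the age or sex of the mice, and nothing in them says that the libraries of a condition came from separate animals or cultures, so the spread between them may be technical. By the names of the lists, peaks of each condition were called against IgG of that same condition, 1 library for the controls and, for CpG, a name spelled in 2 ways that may be 1 library. The background thus follows the condition, and their parts in a difference cannot be told apart.

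Initiation of translation starts when eIF2, carrying GTP and the initiator tRNA, joins the small ribosomal subunit together with eIF1, eIF1A, eIF3 and eIF5. The complex eIF4F, made of the cap-binding protein eIF4E, the scaffold eIF4G and the helicase eIF4A, brings that subunit to the capped end of an mRNA, and eIF5B then joins the large subunit. The pathway is held back by a pair of well-known brakes: kinases that phosphorylate the alpha subunit of eIF2 under stress, and 4E-BPs that sequester eIF4E until mTOR phosphorylates them. In macrophages both brakes are used when cells meet pathogens, and IRF5 itself acts downstream of TLRs and MyD88.

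The control lists held 29226 and 37315 peaks, and the CpG lists 13553 and 25851. CpG 1 stood apart by its short list, and the read depth of every library is unknown. Of 7 listed macrophage marker genes that were named in the files, 6, 6, 3 and 6 had a Promoter call in the same order of libraries, among them Adgre1, Cd68 and Cebpa in all 4. Of 4 named marker genes of other cells, 1 (Pecam1, of endothelium) had one in each library.

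Sequences are shown first for the members in whose promoter window the letters of the interferon response element, the motif that IRF proteins recognise, were found. The window reached from 250 bases before to 50 bases after a RefSeq start. The letters searched were GAAA, any 2 bases and GAAA again, on both strands, shown in capitals below with 10 bases on either side. Positions and sequences are from RefSeq, build GRCm38.p6, and each sequence is read 5′ to 3′ on the strand of its gene.

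Eif2ak2 (chr17:78882535-78882564, minus strand, 18 bases after the start): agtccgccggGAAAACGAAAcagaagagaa
Eif2s1 (chr12:78861850-78861879, plus strand, 212 bases before the start): cctggagcaaGAAACAGAAActtacctctc
Eif3a (chr19:60790885-60790914, minus strand, 211 bases before the start): agaccgcaaaTTTCCCTTTCccactctgtg

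In Eif3a the letters lie on the opposite strand and so read TTTC, 2 bases and TTTC. The match was in 3 of the 50 windows of the members (6.0%), against 3.35% of 21263 windows of protein-coding genes. Of the 44 members, 37 had at least 1 window in the table, and windows of 1 gene can overlap. Eif2ak2 encodes PKR, the kinase that senses double-stranded RNA, and it had no peak at its start in any library. The match is a description of letters, and no binding is read from it.

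The second set is the DNA before the start of members with a Promoter call in all 4 libraries, and of Eif2b2, which had one in both controls and in no CpG library. Capitals mark the letters TGANTCA (AP-1), CACGTG (E-box) and CCAAT, each searched on both strands. Bases that RefSeq places inside a gene were left off, which is why the stretches of Eif2ak3, Eif2ak4 and Eif4ebp2 end 31, 34 and 121 bases before the start used for the window.

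Eif2ak3 (chr6:70844265-70844483, plus strand): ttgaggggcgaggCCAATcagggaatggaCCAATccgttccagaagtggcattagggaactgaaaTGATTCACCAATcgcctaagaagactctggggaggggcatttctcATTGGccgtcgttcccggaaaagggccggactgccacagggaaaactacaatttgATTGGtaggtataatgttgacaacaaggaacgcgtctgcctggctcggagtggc
Eif2ak4 (chr2:118388367-118388582, plus strand): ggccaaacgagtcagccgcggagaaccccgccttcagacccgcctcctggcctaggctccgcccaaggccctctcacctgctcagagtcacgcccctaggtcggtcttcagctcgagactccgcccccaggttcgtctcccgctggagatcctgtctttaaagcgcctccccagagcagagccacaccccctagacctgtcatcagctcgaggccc
Eif3f (chr7:108934165-108934414, plus strand): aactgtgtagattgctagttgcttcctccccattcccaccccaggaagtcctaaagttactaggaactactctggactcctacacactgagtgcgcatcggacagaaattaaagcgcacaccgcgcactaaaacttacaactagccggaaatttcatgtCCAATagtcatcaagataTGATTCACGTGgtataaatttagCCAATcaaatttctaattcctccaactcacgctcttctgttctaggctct
Eif4a1 (chr11:69672424-69672673, minus strand): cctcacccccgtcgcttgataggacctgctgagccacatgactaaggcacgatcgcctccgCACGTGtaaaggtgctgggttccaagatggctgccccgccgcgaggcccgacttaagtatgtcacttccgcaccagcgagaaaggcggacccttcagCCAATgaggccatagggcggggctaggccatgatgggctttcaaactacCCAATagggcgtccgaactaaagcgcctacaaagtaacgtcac
Eif4ebp2 (chr10:61452791-61452919, minus strand): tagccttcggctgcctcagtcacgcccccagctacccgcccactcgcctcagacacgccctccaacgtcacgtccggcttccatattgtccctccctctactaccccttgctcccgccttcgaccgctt
Eif2b2 (chr12:85219231-85219480, plus strand): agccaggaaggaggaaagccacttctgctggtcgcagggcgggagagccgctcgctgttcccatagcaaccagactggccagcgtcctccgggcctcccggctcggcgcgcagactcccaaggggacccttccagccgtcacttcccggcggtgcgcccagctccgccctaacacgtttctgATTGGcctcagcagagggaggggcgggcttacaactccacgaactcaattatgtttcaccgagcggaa

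In Eif3f the AP-1 letters and the E-box run into each other, and in Eif2ak3 the AP-1 letters end where a CCAAT begins. The E-box was in 22.0% of the members' windows and in 7.84% of protein-coding windows, and 9 members held it: Eif1b, Eif3a, Eif3f, Eif3k, Eif4a1, Eif4e, Eif4g1, Eif4h and Eif5a. The NRF1 letters, GCGC, any base and TGCGC, were in 10 of the 50 windows against 6.38%, and the ETS letters CCGGAAGT in 16.0% against 5.15%. By gene these were 7 and 6 of the 37 members with a window, as several windows of Eif5a and of Eif4e2 overlap. The CCAAT letters were in 26% against 38.2%, the AP-1 letters in 5 of 50 windows against 6.99%, and the PU.1-type letters GAGGAAGT in 4.0% against 3.13%. The cyclic AMP element TGACGTCA was in none of the 50 and in 2.23% of protein-coding windows. The members' windows were richer in G and C, with a median of 62.2% against 56.3%, and held a median of 24.0 CG dinucleotides against 13.0. No set of windows matched for base composition was compared, so its part in these shares was not tested.

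A gene was given a Promoter call in a library when the authors' annotation placed a peak of that library in its Promoter class, which covers the 2 kb before a start. Promoter calls were found for 18 of 44 members (40.9%) in control 1, where 24.1% of all named autosomal genes and 33.3% of protein-coding ones were called. In control 2 they were found for 25 (56.8%, against 28.7% and 38.8%). In CpG 1 they were found for 8 (18.2%, against 10.4% and 14.1%), and in CpG 2 for 17 (38.6%, against 22.3% and 30.6%). The members' share was thus above both backgrounds in each of the 4 libraries. Ribosomal protein genes, another large family of the translation machinery, had shares of 42.7%, 50.7%, 17.3% and 38.7% of 75 genes, and proteasome subunit genes, which serve protein breakdown, 38.1%, 40.5%, 9.52% and 42.9% of 42. No test of a list was run, and nothing is called particular to the initiation factors.

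**Figure D1:**
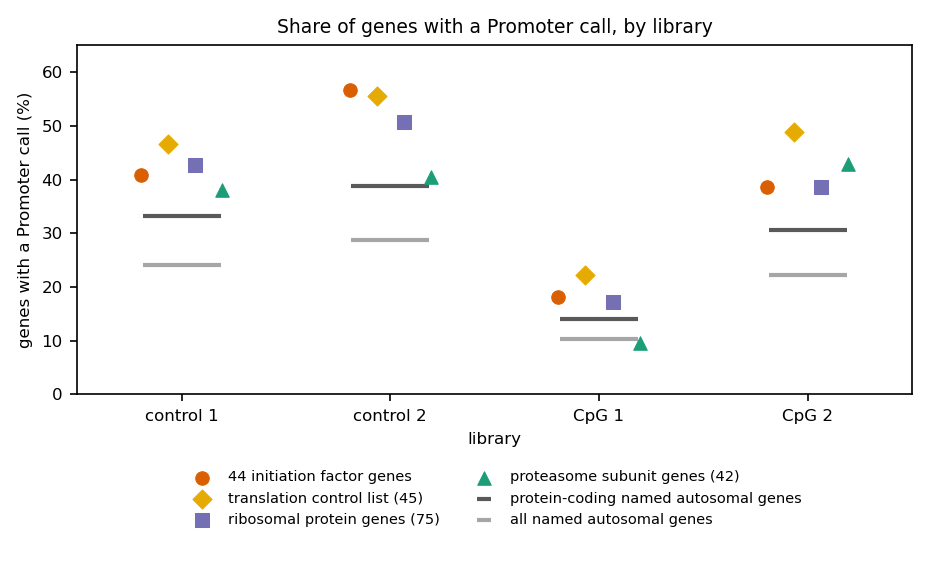
Percent of genes with a Promoter call (vertical axis) in each anti-IRF5 library (horizontal axis) for the 44 initiation factor genes, 3 other gene lists and, as bars, 2 backgrounds. The initiation factors lie above both backgrounds in every library, and all lists are lowest in CpG 1.

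Over the libraries the members' share was 48.9% ± 11.2 in control and 28.4% ± 14.5 in CpG (SD, n = 2 each), a difference of -20.5 percentage points. The lower of the controls (40.9%, 18 members) was above the higher of the CpG libraries (38.6%, 17 members), so the groups did not overlap. The same held for all named genes (24.1% against 22.3%) and for protein-coding genes (33.3% against 30.6%). A two-sided exact permutation test gave p = 0.333, which is the smallest p that 6 assignments of the libraries allow. The ratio of CpG to control was 0.581 for the members, 0.619 for all named genes and 0.621 for protein-coding genes. In percentage points the difference was -10.1 for all named genes and -13.7 for protein-coding genes, so the members' difference was larger in points and similar as a ratio, and no test compared it with either. With each list reduced to its 13553 strongest peaks, the length of the CpG 1 list, the difference was -1.14 points (exact permutation p = 1.00). List length moved with the condition, as both control lists were longer than both CpG lists.

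Members with a Promoter call in any library numbered 29 (65.9%, against 39.9% of all named and 53.4% of protein-coding genes). Of these, 5 had one in all 4 libraries (11.4%, against 5.48% and 7.81%): Eif2ak3, Eif2ak4, Eif3f, Eif4a1 and Eif4ebp2. Without CpG 1 this count was 12. Another 4 were control-only, meaning called in control 1 and control 2 and in no CpG library (9.09%, against 4.31% and 6.01%): Eif2b2, Eif2b5, Eif4h and Eif5. No member was CpG-only, where the backgrounds were 0.617% and 0.804%, which is less than 1 gene in 44. The control-only count was 11 without control 1 and also 11 without CpG 2, and the CpG-only count was 1 without control 1, 2 without control 2 and 2 without CpG 1. Leaving out a library loosens each pattern for every gene, so such counts can only stay or rise. The shares of all named and protein-coding genes with a library left out are not given, so these counts are not read as a result about the members. With lists of equal length the control-only member was Eif5 alone, and Eif1 and Eif2ak3 were CpG-only. The CpG 1 list was not shortened there and kept its Eif1 and Eif2ak3 peaks, at percentiles 1.19 and 7.97 by fold enrichment. In both controls the peak over the start of Eif1 is classed as exon. The strongest peaks were not ranked by fold enrichment, by which the Eif5 Promoter peak of control 1 was at percentile 9.13.

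**Figure D2:**
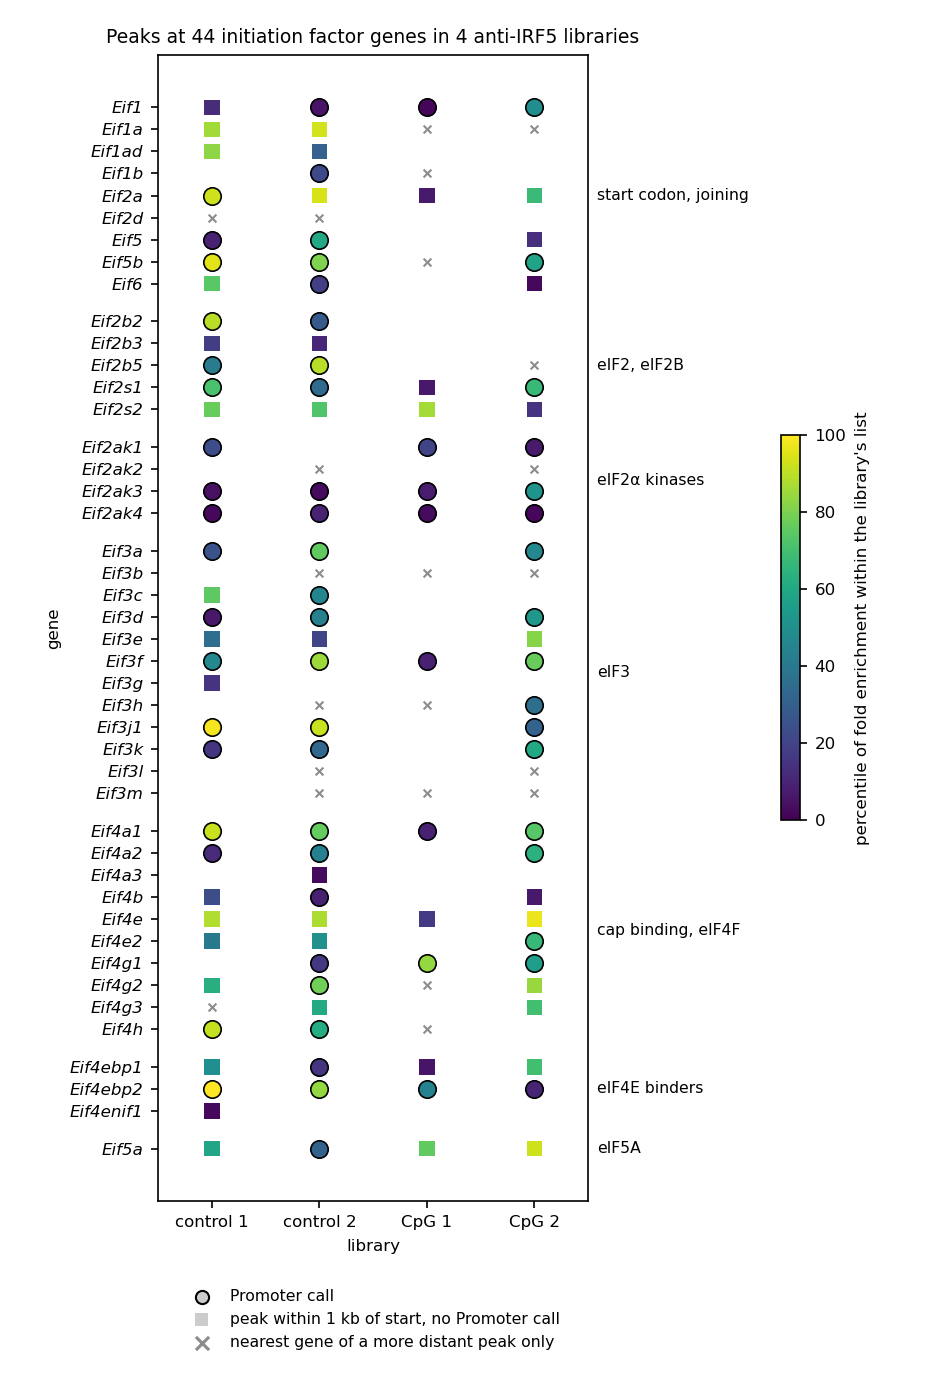
Each row is 1 of the 44 genes, grouped by role, and each column 1 library; circles are Promoter calls, squares are peaks within 1 kb of the start without such a call, and crosses are genes that were nearest to a more distant peak. Colour gives the percentile of fold enrichment among all peaks of that list. The CpG 1 column holds 8 circles and the control 2 column 25.

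Among the kinases of eIF2 alpha, 3, 2, 3 and 3 of 4 had a Promoter call in control 1, control 2, CpG 1 and CpG 2. In the same order, 24.1%, 28.7%, 10.4% and 22.3% of all named genes were called, and 33.3%, 38.8%, 14.1% and 30.6% of protein-coding genes. These shares are also the background of each role group below. The groups are small, and no contrast between roles was tested. Each peak carries a pileup, the authors' count of fragments over its summit, and a fold enrichment, the authors' ratio of the pileup to a local background, which is compared here within a list as a percentile and not between lists. Eif2ak4, the kinase GCN2 that senses uncharged tRNA, had a single peak in each library, with its summit at -122, -62, -55 and -54 bases from the start in the files, where negative is upstream. Its fold enrichments were 3.17, 4.12, 2.90 and 3.17, at percentiles 2.04, 9.49, 3.07 and 1.77, so it was under percentile 10 in every list by this measure. Its pileups of 37, 35, 54 and 38 were at percentiles 90.7, 84.6, 98.3 and 87.8, so by height the same peaks were among the tallest.

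Eif2ak3, the kinase PERK of endoplasmic reticulum stress, had best Promoter peaks with fold enrichments of 3.49, 3.53, 3.45 and 6.21, at percentiles 4.24, 3.06, 7.97 and 51.6. CpG 2 was the library in which it ranked near the middle of the list. A further region at -19698 to -19671 bases was found in control 1, control 2 and CpG 2, with fold enrichments of 6.28, 11.0 and 7.04. Eif2ak1, the heme-regulated kinase, was called in control 1, CpG 1 and CpG 2 and is named here after its values were seen, to complete the family. Eif2ak2 had neither a Promoter call nor a start peak (one within 1 kb), and the peaks nearest to it lay at -8713 to -8549 bases in control 2 (fold enrichment 10.8) and CpG 2 (5.32).

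Of the genes of eIF2 and its exchange factor eIF2B, 3, 3, 0 and 1 of 5 were called. Eif2b2 encodes the beta subunit of eIF2B, and its peaks in control 1 and control 2 had fold enrichments of 9.35 and 5.09 and summits at -104 and -118 bases, with no overlapping peak in a CpG library. Eif2b5 encodes the catalytic epsilon subunit, and its best Promoter peaks in the controls had fold enrichments of 5.37 and 11.5. The one in control 2 has its summit at -1943 bases and overlaps a peak of CpG 2 with its summit at -2020, fold enrichment 11.8, that falls just outside the Promoter class. The peak at -92 bases in control 1 and the one at -142 in control 2 had no counterpart in CpG, so the control-only call of Eif2b5 holds for the start and not for the upstream region.

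Eif2s1 encodes the alpha subunit of eIF2, the substrate of the kinases. It was called in control 1 (6.93), control 2 (5.41) and CpG 2 (7.31). The peaks with those values lie at -1535, -1597 and -790 bases, each within an intron of the neighbour Atp6v1d. Taller peaks covered the start of Eif2s1 in all 4 libraries, with summits at 27, 76, 64 and -58 bases, pileups of 60, 68, 42 and 48, and fold enrichments of 10.6, 9.83, 3.31 and 6.19. The start lies beside that of Atp6v1d, a subunit of the proton pump of lysosomes, and these peaks are in the Promoter class of that gene in all 4 libraries. For Eif2s1 only the CpG 2 peak is in that class and the others are not, and they cannot be given to one gene alone. Eif2s2, the beta subunit, had no Promoter call but had peaks 127 to 381 bases inside its start in all 4 libraries.

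In the group of start codon selection and subunit joining, 3, 5, 1 and 2 of 9 members were called. Eif1 encodes the factor that guards start codon choice and had a peak over its start in all 4 libraries, with pileups of 59, 75, 52 and 100 at percentiles 97.3, 96.8, 98.1 and 98.6. The fold enrichments of these peaks were 4.13, 5.15, 2.53 and 6.04, at percentiles 12.4, 29.7, 1.19 and 48.8. The summits lay at 22 and 26 bases in the controls and at -42 and -41 in CpG 1 and CpG 2, and that shift of under 100 bases across the start changes the class from exon to Promoter. In control 2 the Promoter call of Eif1 came from a separate small peak at -559 bases.

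Eif5, which makes eIF2 hydrolyse its GTP, was control-only with fold enrichments of 3.99 and 6.73, yet a CpG 2 peak overlaps both control peaks with its summit at 18 bases, fold enrichment 4.39, and is classed as exon. Eif6, which keeps the large ribosomal subunit from joining too early, was called in control 2 alone (4.70). Start peaks were present for Eif6 in control 1, control 2 and CpG 2, with fold enrichments of 7.06, 6.25 and 3.31, each nearest to the transcript Gm16098. Eif5b, the GTPase of subunit joining, was singled out after its values were seen, for a region 13858 to 14603 bases inside the gene that was found in all 4 libraries with fold enrichments of 27.8, 5.63, 5.08 and 12.2, at percentiles 99.8, 40.4, 49.5 and 91.3.

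Among the 12 genes of eIF3, the large complex that holds the small subunit ready, 5, 6, 1 and 6 were called. Eif3f was called in all 4 libraries, with summits at -196, -167, -137 and -136 bases. Its fold enrichments were 5.54, 10.2, 3.5 and 8.33, at percentiles 47.1, 85.2, 9.05 and 76.6. CpG 1 was the library in which it ranked low. Eif3a, the scaffold subunit, had Promoter peaks in control 1 (4.78), control 2 (8.31) and CpG 2 (5.92) with summits at -279, -277 and -215 bases. Eif3j1, a loosely bound subunit singled out after its values were seen, had the highest Promoter fold enrichments of the group in both controls (16.9 and 13.0, at percentiles 98.8 and 92.1), 5.27 in CpG 2 and no peak in CpG 1. Eif3b, Eif3l and Eif3m had no peak within 1 kb of their start in any library.

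In the cap-binding group 3, 6, 2 and 4 of 10 members were called. Eif4a1, the main helicase of eIF4F, was called in all 4 libraries, with fold enrichments of 10, 8.40, 3.53 and 7.96 at percentiles 91.8, 76.2, 9.24 and 73.7. Its pileups of 60, 94, 59 and 87 were at percentile 97.4 or above in each list. Eif4a2, its paralog, was called in control 1, control 2 and CpG 2, with fold enrichments of 4.10, 5.86 and 6.96. Eif4h, which stimulates the helicase, was control-only with 9.89 and 6.90, and no CpG peak overlapped those peaks.

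Eif4e, the cap-binding protein, had no Promoter call in any library and still had a peak at its start in all 4. The summits lay 327, 313, 330 and 306 bases inside the start, with pileups of 46, 57, 23 and 76 and fold enrichments of 8.98, 10.9, 3.95 and 18.1 at percentiles 87.9, 87.8, 16.5 and 96.9. These peaks were classed as intron of Eif4e and listed as nearest to Mir1956, a microRNA gene, so the gene has no Promoter call from them. Eif4g1, the scaffold of eIF4F, was called in control 2, CpG 1 and CpG 2 with best fold enrichments of 4.51, 6.88 and 6.36. Those peaks lie 3646 to 4253 bases inside its listed start, and none was within 1 kb of that start. A Promoter class so far inside the gene implies a further annotated start. Its lack of a start peak thus holds for the listed start alone. The region at 4253 to 4549 bases had fold enrichments of 5.36, 6.88 and 16.7 in the same libraries. The CpG 2 peak there, at percentile 96.2, is classed as exon. Eif4g2, a relative of eIF4G that lacks the eIF4E-binding site, was called in control 2 (8.61), had start peaks in control 1 (6.35) and CpG 2 (9.82), and held a region 3188 to 3228 bases inside the gene in all 4 libraries, with fold enrichments of 5.91, 6.76, 9.17 and 8.43.

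Among the eIF4E binders, 1, 2, 1 and 1 of 3 were called. Eif4ebp2, a 4E-BP, was called in all 4 libraries, with fold enrichments of 26, 9.78, 4.86 and 4.14 at percentiles 99.8, 83.6, 44.4 and 10.1. The pileups were 91, 34, 33 and 37, at percentiles 99.2, 83.7, 91.3 and 87.1 of their own lists. The summits were at -429, -426, -262 and -430 bases, and in all but CpG 1 they lay farther upstream than the start peaks of the other members called in all 4. Eif4ebp1, its better-known relative, was called in control 2 alone (4.47), and a peak over its start or first intron was present in all 4 libraries with fold enrichments of 5.65, 6.28, 3.18 and 7.49.

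Eif5a, the hypusine-bearing factor that helps ribosomes through difficult stretches, was called in control 2 alone (5.24). Its start region held the tallest start peaks of all members, with pileups of 108, 139, 85 and 118, each at percentile 99.1 or above, and fold enrichments of 6.08, 7.70, 6.15 and 13.0. The summits were at 471, 471, 471 and 477 bases, so they differed by 6 bases over the 4 libraries. They are classed as intron, and their positions are counted from the start listed in the files. RefSeq gives Eif5a several starts, so a summit inside the listed start can lie before another one. Which start these peaks adjoin was not tested.

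Many peaks at the members' starts were thus in another class, and the members were also counted by any peak that overlaps 1 kb either side of the start, whichever gene is nearest, a rule chosen after the data were seen. By it 34, 34, 13 and 27 members (77.3%, 77.3%, 29.5% and 61.4%) had a start peak, against 36.0%, 40.7%, 14.1% and 32.8% of all named genes and 50.8%, 56.1%, 19.2% and 46.2% of protein-coding genes. In any library 38 members had one (86.4%, against 50.9% and 69.6%). Start peaks in all 4 libraries were found for 12 members (27.3%, against 9.76% and 13.7%): Eif1, Eif2a, Eif2ak3, Eif2ak4, Eif2s1, Eif2s2, Eif3f, Eif4a1, Eif4e, Eif4ebp1, Eif4ebp2 and Eif5a. The control-only members were 7 (15.9%, against 6.34% and 8.99%), namely Eif1a, Eif1ad, Eif2b2, Eif2b3, Eif2b5, Eif3c and Eif4h. None was CpG-only, against 0.582% and 0.804%. Eif2b2, Eif2b5 and Eif4h were control-only by both rules, and Eif5 was not.

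**Figure D3:**
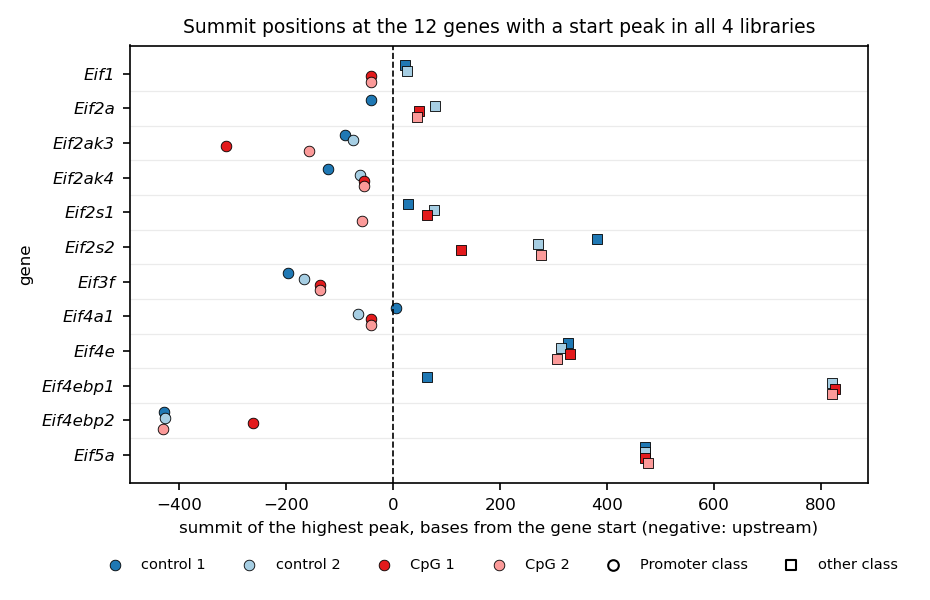
Horizontal axis: summit of the highest peak in bases from the gene start, negative upstream, for the 12 genes with a start peak in all 4 libraries; each point is 1 library, circles in the Promoter class and squares in another class. The points of Eif5a and Eif4e lie close together inside the gene, whereas those of Eif1 fall on both sides of the start.

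At the members' starts, height and enrichment ranked differently. The median percentile of pileup over the members with a start peak was 81.8 and 82.3 in the controls and 92.2 and 87.1 in CpG 1 and CpG 2, and the median percentile of fold enrichment was 61.0, 52.6, 9.05 and 50.6. Over protein-coding genes with a start peak the same medians were 79.7, 77.3, 79.5 and 73.6 for pileup and 51.1, 50.7, 32.6 and 43.3 for fold enrichment. The percentile of pileup was above that of fold enrichment for 24 of 34, 26 of 34, 12 of 13 and 23 of 27 members, where 69.7%, 72.0%, 71.5% and 72.2% of protein-coding genes with a start peak had the same order. In both controls the members were close to that background. In CpG 1, 8 of the 13 members had a fold enrichment under percentile 10. The share of protein-coding genes under that percentile was not counted. Their median percentile of fold enrichment was also lowest in CpG 1, at 32.6. The count is thus not read as particular to the members. The local background implied by pileup and fold enrichment, on the assumption that the caller adds 1 to both, was 13.5, 13.8, 20 and 15.7 fragments at Eif1 and 11.0, 7.74, 18 and 11.3 at Eif2ak4. The lowest value in each list was 0.989, 1.01, 1.31 and 0.886. Whether the IgG library or the surrounding signal sets this background was not tested.

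**Figure D4:**
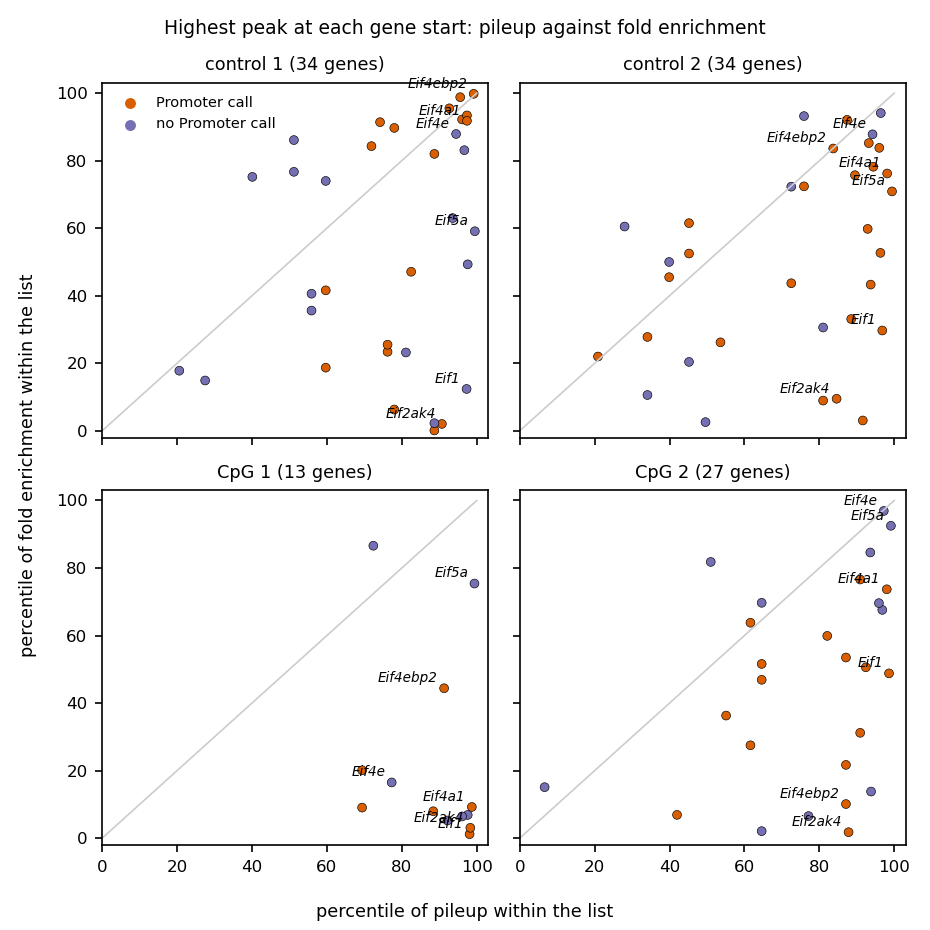
Percentile of pileup (horizontal) against percentile of fold enrichment (vertical) for the highest peak at each member's start, 1 panel per library, orange where the gene has a Promoter call; both percentiles are within that library's list and the line marks equality. Most points lie below the line, and in CpG 1 they crowd in the lower right corner.

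The genes were also counted as nearest gene of any peak, at any distance. By that count 34, 40, 22 and 33 of the 44 members were nearest to a peak, against 64.1%, 72.2%, 43.3% and 61.7% of all named genes and 69.7%, 76.9%, 39.7% and 65.7% of protein-coding ones, which are themselves defined by being nearest to a peak in some list. The mean was 84.1% ± 9.64 in control and 62.5% ± 17.7 in CpG (SD, n = 2 each), a difference of -21.6 points with an exact permutation p = 0.333. With lists of equal length the difference turned to 3.41 points (exact permutation p = 1.00). The peaks nearest to members lay close to the start: 56.5%, 50.7%, 46.2% and 47.4% had a summit within 1 kb of it, against 25.7%, 23.1%, 19.1% and 26.1% of the peaks nearest to all named genes. Protein-coding genes were not counted apart here, so the part of gene type in this difference was not tested.

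When overlapping peaks of the 4 libraries were joined, the members had 106 regions, 55 at starts and 51 farther away. The background here is all autosomal peaks joined in the same way, 11247 regions within 1 kb of the start of a named gene and 43523 farther away. Of the members' start regions 12 were in all 4 libraries (21.8%, against 14.5%), 13 in all but CpG 1 (23.6%, against 21.0%), 8 in both controls alone (14.5%, against 11.4%) and 20 in 1 library (36.4%, against 40.6%). Of the distant regions 5 were in all 4 (9.80%, against 8.96%), and 26 in 1 library (51.0%, against 60.0%). No region was in both CpG libraries and neither control, where the background was 1.08% at starts and 1.17% farther away. Besides those of Eif5b and Eif4g2, the distant regions found in all 4 belonged to Eif1a, at 14648 to 14786 bases, and to Eif2a, at -17494 to -17219 and -9632 to -4252 bases, the latter with fold enrichments of 14.7, 24.7, 5.40 and 18.9. Eif2a encodes an alternative initiator tRNA carrier, not a subunit of eIF2, and shares its start with Serp1, and both genes are named after their values were seen.

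The 15 members without a Promoter call in any library were Eif1a, Eif1ad, Eif2ak2, Eif2b3, Eif2d, Eif2s2, Eif3b, Eif3e, Eif3g, Eif3l, Eif3m, Eif4a3, Eif4e, Eif4enif1 and Eif4g3. Of these, Eif2ak2, Eif2d, Eif3b, Eif3l and Eif3m also had no peak within 1 kb of the start, and the other 10 had one in at least 1 library.

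Translation control genes outside the initiation factors, 45 of a list of 52 that were named in the files, are given for comparison. The genes called numbered 21, 25, 10 and 22 (46.7%, 55.6%, 22.2% and 48.9%). All named genes stood at 24.1%, 28.7%, 10.4% and 22.3%, and protein-coding genes at 33.3%, 38.8%, 14.1% and 30.6%. The list had 22 genes called in CpG 2 and 21 in control 1, where the members had 17 and 18. Proteasome genes had 18 and 16, and ribosomal protein genes 29 and 32. The order of these libraries thus rests on few genes in each list. In all 4 libraries were Dhx9, an RNA helicase, Dohh, which completes the hypusine of eIF5A, Etf1, the release factor of termination, Mknk2, a kinase of eIF4E, and Rheb, the activator of mTOR. Dohh had fold enrichments of 5.22, 8.61, 2.19 and 5.77, and Rheb of 5.84, 10.4, 4.17 and 16.1. Chac1 and Trib3, targets of the stress factor ATF4, were control-only, with 5.93 and 4.47 for Chac1 and 4.08 and 6.25 for Trib3. Mtor, the kinase that releases eIF4E from 4E-BPs, was CpG-only, with 4.25 and 7.91, at percentiles 23.3 and 72.7. For Chac1, Trib3 and Mtor, overlap with peaks of another class in the other condition was not examined. Their calls can thus differ in class alone. The list thus had 5 genes in all 4 libraries, 2 control-only and 1 CpG-only, where the initiation factors had 5, 4 and 0. The same patterns held 5.48%, 4.31% and 0.617% of all named genes, and 7.81%, 6.01% and 0.804% of protein-coding genes.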

How the data were processed

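Per the submitters' processing notes the tools were MACS2 2.1.0, BWA 0.7.12, fastp 0.20.0 and ChIPseeker. Which genome build the lists use is not given in the sources read. The 6 peak lists deposited by the authors (4 of single libraries, 2 of whole conditions) give for each peak a pileup signal, a fold enrichment ratio and −log10 values of the p-value and the q-value; damaged headers were read from column order and values. The 4 IgG libraries among the 8 samples were not analysed here. Depth is unknown, so no interval is given.

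Peaks on nuclear chromosomes were used, and lines that continue an overlong annotation cell were skipped. Positions inside the text are distances from the start listed in the deposited files; RefSeq coordinates (GRCm38.p6) belong to the printed sequences alone. A percentile is a peak's rank within its list. The named-gene background counts gene IDs, of which 465 repeat a symbol; each listed symbol was counted once. Shares were compared over libraries by a two-sided exact permutation test. Python 3.11.15, pandas 2.3.3 and numpy 2.4.6 were used, and the counting was tested on simulated data. Members, lists and alternatives were chosen with earlier results of these data known. Named genes are the members called in all 4 libraries, the control-only and CpG-only members, 17 members fixed by their role, the members without any call, and the genes of the translation control list called in all 4 libraries or in both libraries of 1 condition alone; any other is marked in the text. Alternatives were lists of equal length, a −log10 q of at least 5, other promoter rules, factor subunits alone, the whole-condition lists, overlap with the other condition, each library left out, and the replicate number as a block. The protein-coding background stands beside the main one for the shares of genes called. Joined regions and the positions of nearest peaks have the named-gene background alone. Motif shares and the medians of pileup and fold enrichment at starts have the protein-coding one alone.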

Additional observations from a re-analysis of the deposited data

How the results depend on the processing

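The difference in the share of members with a Promoter call kept its sign under every alternative run, from -31.8 points (any peak within 1 kb of the start) to -1.14 (lists of equal length), and it passed no test, which 2 libraries per condition do not allow. The share nearest to a peak, -21.6 points, turned to 3.41 with lists of equal length. Members called in all 4 libraries, 5, were 3 with lists of equal length and with a −log10 q of at least 5, 2 among the 33 factor subunits alone, 9 with a nearest-gene summit within 1 kb, 12 with any peak within 1 kb, and 8 in the whole-condition lists. Control-only members, 4, were 1 with equal lengths, 7 under both 1 kb rules, 8 in the whole-condition lists, and 2 where no peak of the other condition overlapped, at 1 bp and at 50% of the shorter peak. CpG-only members, 0, were 2 with equal lengths, 1 with the −log10 q limit, 1 (Eif2s1) with a summit within 1 kb, and 4 in the whole-condition lists (Eif1, Eif2ak1, Eif4ebp1 and Eif4g1). Fewer peaks enter under the first 2 settings by construction. With a nearest-gene summit within 1 kb, the members' shares were 20.5% in all 4 libraries, 15.9% control-only and 2.27% CpG-only. All named genes stood at 6.58%, 5.93% and 0.670% under that rule, and protein-coding genes at 9.85%, 8.66% and 0.966%. Both backgrounds were thus also higher than under the main rule. The shares for any peak within 1 kb are given above, and for the other settings none is given. By the summit rule Eif2s1 is CpG-only because both control peaks over its start are listed as nearest to Atp6v1d. In the control whole-condition list, peaks classed as exon overlap the CpG Promoter peaks of Eif1 and Eif4ebp1. These genes thus differ there in class and not in the presence of a peak. For Eif4g1 that list has an exon peak that does not overlap the CpG Promoter peak, and for Eif2ak1 it has none. The cause of the other changes was not tested.

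Leaving out 1 library at a time gave -30.7 to -10.2 points for Promoter calls, -34.1 to -9.09 for nearest genes, 5 to 12 members in all libraries kept, 4 to 11 control-only and 0 to 2 CpG-only. These counts of members can only stay or rise when a library is left out, as for any list of genes. With the replicate number as a block, both differences stayed at -20.5 and -21.6 points, with an exact permutation p = 0.50 by sign flips within numbers, the smallest possible; same-numbered libraries deviated together with a correlation of 0.0467 over genes, and nothing in the labels says that the numbers pair them.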

Other observations

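Initiation factor genes on the sex chromosomes lie outside the autosomal rule. Eif2s3x, the gamma subunit of eIF2 on X, had a Promoter call in all 4 libraries, with fold enrichments of 7.80, 7.69, 3.17 and 6.26 at percentiles 80.8, 70.9, 5.15 and 52.8. Its Y-linked relative Eif2s3y had one in control 1 (19.1, percentile 99.3) and control 2 (13.9, percentile 93.2) and no peak in either CpG library. The labels do not give the sex of the mice. Sex, list length and condition thus cannot be told apart for this gene. Eif1ax had one in CpG 2 (5.69), and the Argonaute-like gene Eif2c5 was nearest to 1 peak, in control 2.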
